A study of Mus musculus with 12 samples.

Results

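The genes described here are 5 plasma membrane transporters for glucose and for small organic acids, Slc2a1, Slc2a3, Slc16a1, Slc16a3 and Slc16a6, taken by their symbols from 35321 genes in the deposited gene table. The cells were C17.2, an established line of neural progenitors from the mouse, whose strain is given as CD1 x C57BL/6. They were grown in DMEM/F12 with 10% FBS and an antibiotic-antimycotic mix, and neural differentiation was then induced with Knockout DMEM, GlutaMAX and N2 supplement. RNA was sequenced from mitochondrial preparations at 0, 1 and 2 h and from nuclei at 0, 1 and 2 h, with 2 libraries in each of the 6 groups and 12 in all. All groups came from this line, and the 0 h groups stood before the medium change. No group without the change of medium was analysed here, so induced differentiation, the loss of serum and the change itself cannot be told apart.

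Glucose enters most cells by facilitated diffusion through the GLUT proteins of the SLC2 family, which carry the sugar down its gradient. Lactate, pyruvate and ketone bodies cross together with a proton through monocarboxylate transporters of the SLC16 family, which need a single-pass glycoprotein, basigin or embigin, to reach the plasma membrane. In the brain, GLUT1 supplies the endothelium and glia and GLUT3 supplies neurons, while MCT1 and MCT4 are linked to lactate exchange. Glycolytic cells under low oxygen raise GLUT1 and MCT4 through the hypoxia-inducible factor HIF-1.

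The libraries held 4564148 to 9252152 reads in listed genes, between 13.9% and 21.88% of the total used for scaling. That share was 15.18% to 16.1% in mitochondrial preparations after the change, against 18.89% and 21.19% at 0 h, and it was 13.9% to 15.46% in nuclei after the change, against 21.44% and 21.88% at 0 h. The median gene also moved on the deposited scale, by -0.22 and -0.28 (log2) in mitochondrial preparations at 1 and 2 h against 0 h, and by -0.64 and -0.51 in nuclei. Fold changes below are on quantile-normalized log2 RPM (reads scaled to the library's total), where these medians were at most 0.01, and the deposited scale is given where it changes the reading. In 4 libraries (replicate 2 of the mitochondrial 0 h group and replicate 1 of the mitochondrial 1 h, the nuclear 0 h and the nuclear 1 h groups), many genes differed from the group's other library in the same way. Over 10134 genes, the replicate differences of the 0 h and 1 h groups correlated with each other at -0.80 to 0.80, and those of the 2 h groups did so with none beyond 0.06. The progenitor mRNAs Nes (median 122 RPM), Vim (423 RPM) and Sox2 (4.8 RPM) were present, and Pax6 was near 0 (0.0126 RPM). Of the neuronal markers, Tubb3 (median 8.28 RPM) and Map2 (10 RPM) were present in every library, Dcx had no read in any and the median of Rbfox3 was 0. All 13 mitochondrially encoded mRNAs were listed at 0 in every library, and the nuclear RNA Malat1 reached 265 RPM or more in every library, and how far the 2 preparations were free of each other's RNA was not tested.

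Set per length of merged exon, the 5 genes stood in the following order of level. Slc16a1 had a median of 4.39 RPM per exon kilobase over the 12 libraries and Slc2a1 had 2.59. Slc16a6 followed at 0.595 and Slc16a3 at 0.0665 RPM per exon kilobase, and Slc2a3 had a median of 0. The libraries of Slc16a1 (4.16 to 6.70) and Slc2a1 (1.89 to 4.45) overlapped, and so did those of Slc16a6 (0.203 to 1.26) and Slc16a3 (0.0308 to 0.231), whereas every library of Slc2a1 lay above every one of Slc16a6 and every one of Slc16a3 above Slc2a3.

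**Figure D1:**
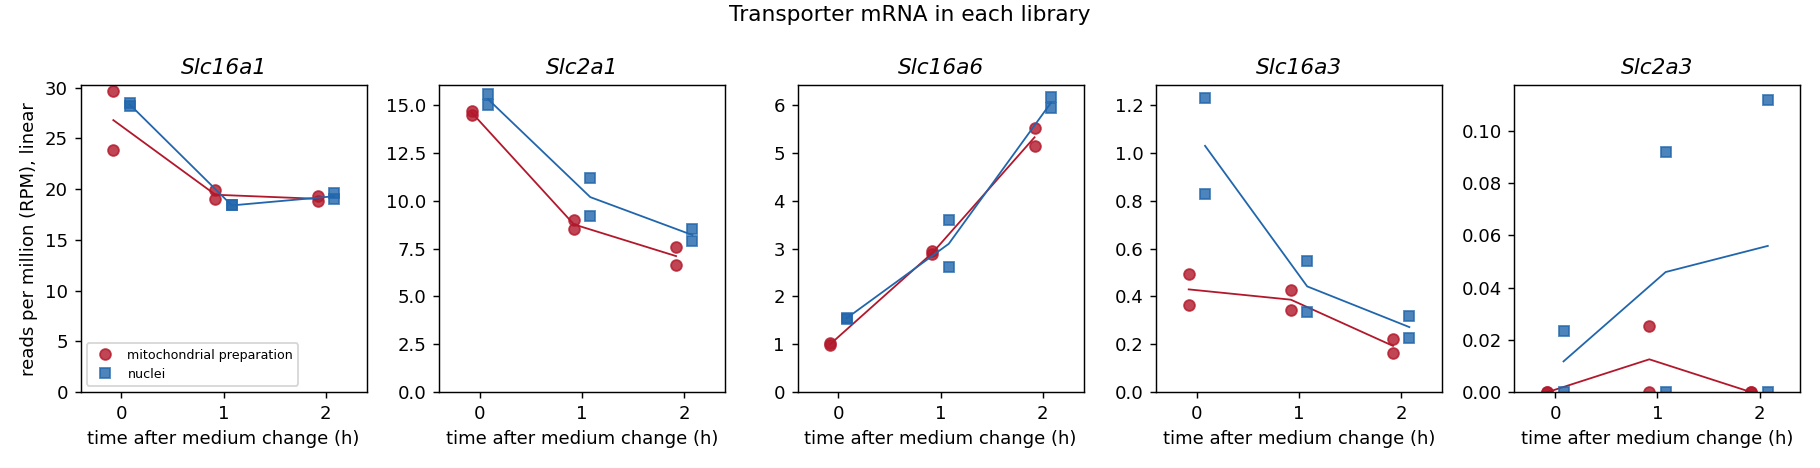
Level of each transporter in each library, in linear RPM on the deposited scale, against hours after the medium change. Circles are mitochondrial preparations and squares are nuclei, with 2 libraries per group and lines through the group means. The vertical scales differ between panels. Slc16a6 climbs at both later times in both preparations, Slc2a1 and Slc16a1 stand highest at 0 h, and Slc2a3 rests on 9 reads in all.

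RefSeq promoters were at hand for 3 of the 5 genes, and are shown because Slc2a1 and Slc16a3 are textbook HIF-1 targets while Slc16a1 has long been studied as a target of the E-box factor Myc. Each stretch starts 250 bases before the RefSeq start, on the plus strand of GRCm38.p6, and stops before annotated exons except where a motif spans that edge. Capitals mark ACGTG, a form of the core of the HIF-1 response element, on either strand, and the form GCGTG was not searched for.
Slc2a1, chr4:119108495-119108713: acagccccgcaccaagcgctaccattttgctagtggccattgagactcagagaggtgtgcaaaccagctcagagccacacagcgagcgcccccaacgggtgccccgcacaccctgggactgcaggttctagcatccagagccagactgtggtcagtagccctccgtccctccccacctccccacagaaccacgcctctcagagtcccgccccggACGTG
Slc16a1, chr3:104638414-104638663: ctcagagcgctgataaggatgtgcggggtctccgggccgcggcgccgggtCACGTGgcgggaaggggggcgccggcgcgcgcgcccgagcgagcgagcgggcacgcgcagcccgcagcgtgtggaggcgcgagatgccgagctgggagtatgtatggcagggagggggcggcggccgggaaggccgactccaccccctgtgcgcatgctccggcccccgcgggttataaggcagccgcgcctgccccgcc
Slc16a3, chr11:120948817-120949052: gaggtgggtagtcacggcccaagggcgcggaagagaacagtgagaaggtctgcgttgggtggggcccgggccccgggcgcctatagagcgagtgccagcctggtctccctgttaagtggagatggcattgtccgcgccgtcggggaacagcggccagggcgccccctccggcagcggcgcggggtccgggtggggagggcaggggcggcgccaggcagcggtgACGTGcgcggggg
In the full window of 250 bases, Slc2a1 held ACGTG at 36 to 32 bases before the start. Slc16a1 held it on both strands within the palindromic E-box CACGTG at 200 to 195 bases, and Slc16a3 held it at 27 to 23 and at 14 to 10 bases. The last 14 bases of the Slc16a3 window are annotated exon, so its second match lies outside the printed stretch. That stretch also lies inside the annotated gene, which starts at 120948480. On both strands, ACGTG occurs in 16.6% of 32851 mouse promoters of that length and CACGTG, which contains it, in 6.02%. The GC box GGGCGG was found in all 3, and it occurs in 32.7% of promoters. TGACG was found in Slc16a3 alone, at 29 to 25 bases and overlapping an ACGTG, and it occurs in 17.8% of promoters. These are matches of letters and say nothing of binding.

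Slc16a6 (ENSMUSG00000041920, GRCm38 chromosome 11, 109450855 to 109473598, minus strand) encodes MCT7, which in zebrafish was found to export ketone bodies from the liver. In mitochondrial preparations it had 1.02 and 0.989 RPM at 0 h, 2.94 and 2.88 RPM at 1 h, and 5.14 and 5.51 RPM at 2 h. In nuclei it had 1.53 and 1.56 RPM at 0 h, 3.59 and 2.61 RPM at 1 h, and 5.93 and 6.16 RPM at 2 h. In each preparation both 1 h libraries lay above both 0 h libraries and below both 2 h libraries. Behind these levels, where more expressing cells and more RNA per cell cannot be told apart, were 184 to 251 reads per library at 2 h, against 31 to 66 at 0 h.

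The log2 fold change of Slc16a6 in mitochondrial preparations was 1.76 ± 0.16 at 1 h and 2.65 ± 0.16 at 2 h against 0 h (± SE of limma). In nuclei it was 1.75 ± 0.16 at 1 h and 2.59 ± 0.16 at 2 h, or 6.30-fold and 6.02-fold at 2 h in the mitochondrial preparations and the nuclei. The 2 h libraries stood 0.89 ± 0.16 above the 1 h libraries in mitochondrial preparations and 0.84 ± 0.16 above them in nuclei. These changes with time were known when the gene was chosen and are given as a description, with no test. On the deposited scale they were 1.53 and 2.4 in mitochondrial preparations at 1 and 2 h, and 0.99 and 1.97 in nuclei. Without the 4 libraries that stood apart they were 1.78 and 2.68 in mitochondrial preparations and 1.52 and 2.56 in nuclei.

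The response of Slc16a6 was compared between the preparations, which the choice of the gene did not use. Its 1 h response differed by 0.02 ± 0.23 (log2, mitochondrial minus nuclear) and its 2 h response by 0.07 ± 0.23, with limma adjusted p of 1 and 0.98. The level over the 3 times was -0.17 ± 0.09 in mitochondrial preparations relative to nuclei (adjusted p = 0.31). None of these passed the threshold of adjusted p under 0.05 over the 21078 genes tested. Missing the threshold with 2 libraries per group does not show that the responses were alike.

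The 3' end of Slc16a6 shares 1959 bases with Amz2, a protein-coding gene on the other strand, and its 5' end shares 225 bases with Arsg. The labels do not say whether strand was used in counting, so reads there cannot be assigned to either gene with certainty. Amz2 had 303 and 309 reads in mitochondrial preparations at 2 h, against 204 and 231 at 0 h, and in nuclei 253 and 299 reads at 2 h, against 253 and 378 at 0 h. Arsg had 2 to 15 reads per library. The part of this overlap in the values of Slc16a6 was not tested.

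The profiles nearest to Slc16a6 were sought among genes above the median level, by the root mean square difference of centred log2 values over the 12 libraries. They were Arrdc4, an alpha-arrestin that promotes removal of GLUT1 from the cell surface, at 0.21, Slc30a1, a zinc exporter, at 0.22, and Ciart, a repressor of the circadian clock, at 0.23. The root mean square of Slc16a6 itself about its mean was 1.1. At 2 h against 0 h, Arrdc4 changed by 2.63 in mitochondrial preparations and 2.4 in nuclei, Slc30a1 by 2.56 and 3.12, and Ciart by 2.35 and 2.36 (log2). These genes were picked for their likeness, and the 12 libraries share the time course, so the closeness is a description with no test.

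**Figure D2:**
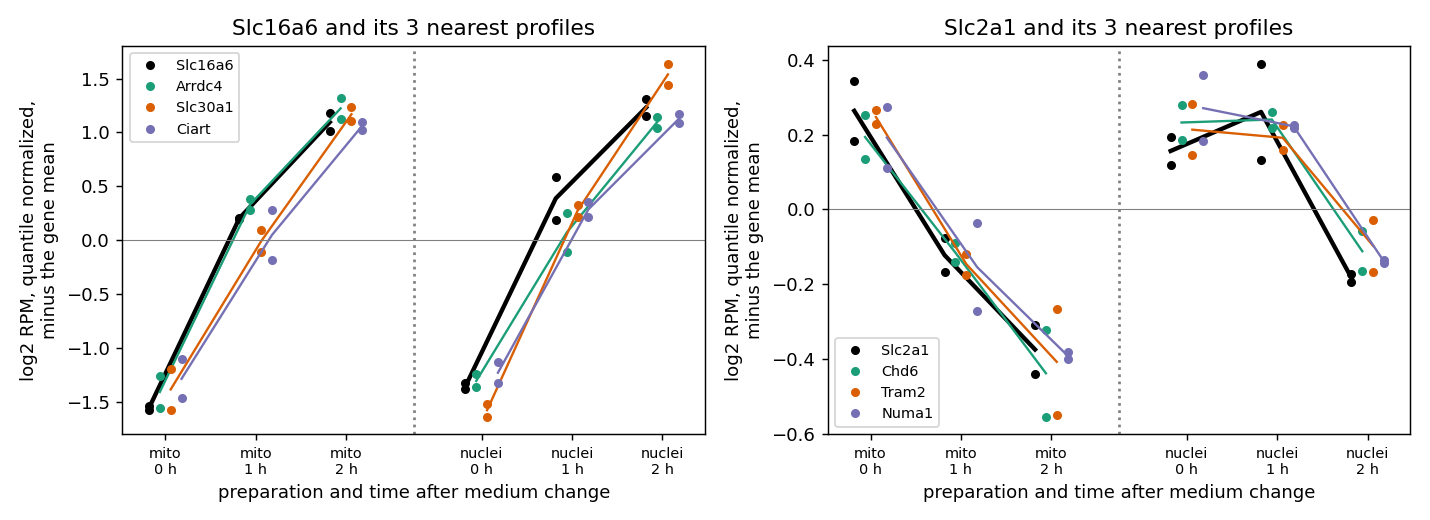
Profiles of Slc16a6 (left) and Slc2a1 (right) in black, each with the 3 genes of the most similar profile, as quantile-normalized log2 RPM minus the gene's own mean. Points are libraries, 2 per group, and lines join group means within each preparation, mitochondrial on the left of the dotted line and nuclei on the right. The Slc16a6 panel spans about the same range for all 4 genes, and the Slc2a1 panel covers a much narrower range.

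Slc2a1 (ENSMUSG00000028645, GRCm38 chromosome 4, 119108711 to 119137983, plus strand) encodes GLUT1, the basal glucose transporter of most cells. In mitochondrial preparations it had 14.7 and 14.5 RPM at 0 h, 9.01 and 8.52 RPM at 1 h, and 7.60 and 6.62 RPM at 2 h. In nuclei it had 15.6 and 15 RPM at 0 h, 11.2 and 9.18 RPM at 1 h, and 8.54 and 7.88 RPM at 2 h. On this deposited scale the groups did not overlap in either preparation, with 0 h highest and 2 h lowest.

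After quantile normalization, Slc2a1 fell in mitochondrial preparations at 2 h against 0 h, by 0.64 ± 0.10 on the log2 scale, with a limma adjusted p of 0.0026 and both 2 h libraries below both 0 h libraries. Without the 4 libraries that stood apart the fold change there was -0.56 ± 0.09, with an adjusted p of 0.098 from 8 libraries. At 1 h in these preparations it was -0.39 ± 0.10, with an adjusted p of 0.051. This narrow miss passed on the deposited scale (-0.74, adjusted p = 0.00096) and after median centring (-0.43, adjusted p = 0.017). The transporters and the tests were chosen with earlier results of these data known. The p-values of Slc2a1, Slc16a1 and Slc16a3, here and below, are therefore not independent evidence.

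In nuclei, as in mitochondrial preparations, both 2 h libraries of Slc2a1 lay below both 0 h libraries. How many of all genes part in this way was not counted, so nothing is read from it. The fold change of Slc2a1 in nuclei was -0.34 ± 0.10 at 2 h against 0 h (adjusted p = 0.062). It passed on the deposited scale (-0.90, adjusted p = 0.00011), with median centring (-0.38, adjusted p = 0.024), among genes above the median level (-0.34, adjusted p = 0.018) and with voom weights on the recovered reads (-0.36, adjusted p = 0.027). It fell between 1 and 2 h in nuclei by 0.44 ± 0.10 (log2, adjusted p = 0.048). That call ended without nuclei 1 h replicate 1 (-0.31, adjusted p = 0.22), without either nuclei 2 h library (-0.46 and -0.44, adjusted p = 0.17 and 0.18) and on the deposited scale (-0.31, adjusted p = 0.19). It also ended with a term for the 4 libraries that stood apart (-0.37, adjusted p = 0.062), without those 4 (-0.32, adjusted p = 0.31), with the replicate block (-0.44, adjusted p = 0.067) and with voom weights (-0.41, adjusted p = 0.079). No filter on low values and no variance trend or robust moderation ended it as well (adjusted p = 0.062 and 0.15). At 1 h against 0 h in nuclei the value was 0.10 ± 0.10 (adjusted p = 0.74) and the libraries overlapped, whereas on the deposited scale it was -0.59 (adjusted p = 0.0011). The share of reads in genes was lower at 1 h by the amounts given above, and its part in this difference between scales was not tested.

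The 1 h response of Slc2a1 differed by -0.49 ± 0.15 between mitochondrial preparations and nuclei (adjusted p = 0.17), and the 2 h response by -0.30 ± 0.15 (adjusted p = 0.55). Its level over the 3 times was -0.16 ± 0.06 in mitochondrial preparations relative to nuclei (adjusted p = 0.14). None of the 3 passed, although the 1 h difference did after median centring (-0.59, adjusted p = 0.035). Antisense Gm12868 shares 4235 bases with the locus and had 4 to 28 reads per library, against 243 to 634 for Slc2a1. The nearest profiles to Slc2a1 were those of Chd6 (0.08), a chromatin remodeller, Tram2 (0.09), a translocon-associated membrane protein, and Numa1 (0.09), which organises the mitotic spindle, beside a root mean square of 0.25 for Slc2a1 itself.

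Slc16a1 (ENSMUSG00000032902, GRCm38 chromosome 3, 104638668 to 104658462, plus strand) encodes MCT1, the widely expressed lactate and pyruvate transporter. In mitochondrial preparations it had 29.7 and 23.9 RPM at 0 h, 19.0 and 19.9 RPM at 1 h, and 19.3 and 18.8 RPM at 2 h. In nuclei it had 28.2 and 28.5 RPM at 0 h, 18.4 and 18.4 RPM at 1 h, and 19.6 and 19.0 RPM at 2 h. All 8 later libraries were below all 4 libraries at 0 h on this scale.

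That gap closed after quantile normalization. The log2 fold change of Slc16a1 against 0 h was then -0.11 ± 0.07 at 1 h and -0.08 ± 0.07 at 2 h in mitochondrial preparations (adjusted p = 0.42 and 0.53). In nuclei it was 0.05 ± 0.07 at 1 h and 0.02 ± 0.07 at 2 h (adjusted p = 0.84 and 0.94). On the deposited scale the same comparisons gave -0.45 and -0.49 in mitochondrial preparations and -0.62 and -0.56 in nuclei, with adjusted p between 0.00024 and 0.0055, so the call and in nuclei the sign depended on the scaling. These deposited changes lay close to the shift of the median gene in nuclei, and beyond it in mitochondrial preparations. The level in mitochondrial preparations relative to nuclei was -0.07 ± 0.04 (adjusted p = 0.33), and with median centring it turned to 0.17 (adjusted p = 0.011). Its root mean square of 0.06 about its own mean was about that of the difference from its nearest profiles, Lgals1 (0.05), Atp5b (0.05) and Cnn3 (0.06).

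**Figure D3:**
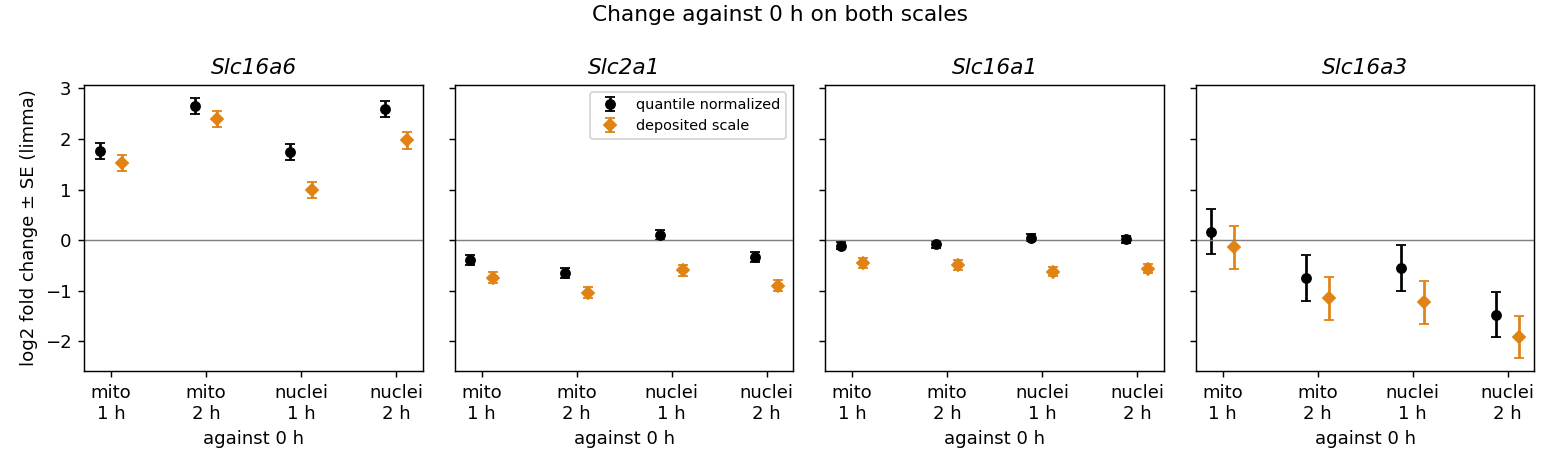
Log2 fold change against 0 h, with the SE of limma, for 4 transporters at 1 and 2 h in mitochondrial preparations (mito) and nuclei. Black circles are quantile-normalized values and orange diamonds are the deposited scale. Slc16a6 is above 0 on both scales, Slc16a1 lies near 0 on the first scale and near -0.5 on the second, and the bars of Slc16a3 are the widest.

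Slc16a3 (ENSMUSG00000025161, GRCm38 chromosome 11, 120948480 to 120960868, plus strand) encodes MCT4, the lactate exporter of glycolytic cells. In mitochondrial preparations it had 11 and 17 reads at 0 h, 11 and 17 reads at 1 h, and 8 and 6 reads at 2 h. In nuclei it had 45 and 35 reads at 0 h, 11 and 18 reads at 1 h, and 8 and 13 reads at 2 h, so that the nuclear 0 h libraries stood apart from the other 10. In RPM these were 1.23 and 0.828 in nuclei at 0 h, and no other library exceeded 0.547.

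At 2 h against 0 h, the log2 fold change of Slc16a3 was -0.75 ± 0.45 in mitochondrial preparations (adjusted p = 0.35) and -1.47 ± 0.45 in nuclei (adjusted p = 0.063). Neither passed. In both preparations both 2 h libraries were below both 0 h libraries, but how many of all genes part so was not counted and nothing is read from it. The nuclear change passed on the deposited scale (-1.91, adjusted p = 0.0038) and with a pseudocount of 0.5 RPM (-0.66, adjusted p = 0.044). At 1 h the values were 0.17 ± 0.45 and -0.55 ± 0.45 in mitochondrial preparations and nuclei (adjusted p = 0.93 and 0.66), and the normalized libraries overlapped. On the deposited scale the nuclear 1 h libraries lay below the 0 h libraries, with a change of -1.23 (adjusted p = 0.031). With SEs of 0.45 at these read numbers, even the change of -1.47 did not pass. The nearest profiles were Cdh19 (0.27), Unc50 (0.31) and Kdm3a (0.31), the last a histone demethylase that HIF-1 induces, beside 0.59 for Slc16a3 itself.

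Slc2a3 (ENSMUSG00000003153, GRCm38 chromosome 6, 122727809 to 122801640, minus strand) encodes GLUT3, the high-affinity glucose transporter typical of neurons. It had 9 reads over the 12 libraries. Mitochondrial preparations held 1 read, in a 1 h library, and nuclei held 1 read at 0 h, 3 reads at 1 h and 4 reads at 2 h, in 1 library each. Only the library with 4 reads exceeded 3 reads, so no fold change is given. GLUT3 mRNA was at or near the detection limit here.

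In the fit over all genes, the number of the 5 transporters past the threshold was small in each comparison, and Slc16a6, whose changes were known beforehand, makes up most of it. In mitochondrial preparations at 1 h against 0 h 1 of the 5 rose and none fell, where 2.24% of all genes rose and 3.74% fell. At 2 h 1 rose and 1, Slc2a1, fell, where 4.66% of all genes rose and 6.78% fell. In nuclei 1 rose and none fell at 1 h (1.01% and 0.816% of all genes) and likewise at 2 h (4.65% and 5.55%). Between 1 and 2 h, 1 rose and none fell in mitochondrial preparations, where 1.61% of all genes rose and 2.12% fell, and 1 rose and 1, Slc2a1, fell in nuclei, where 1.16% rose and 1.27% fell. Between mitochondrial preparations and nuclei over the 3 times, limma called none of the 5, where 4.43% of all genes were higher and 5.19% lower, and only Slc2a1 of the 5 had an unadjusted p under 0.05. Limma called none for the difference of the 1 h response, where 0.327% of all genes were higher and 0.892% lower and again only Slc2a1 had such an unadjusted p. It called none for the difference of the 2 h response, where 0.00474% were higher and 0% lower and no transporter had such a p. On the deposited scale, where the median gene fell, 1 rose and 2 fell in mitochondrial preparations at 1 h against 0 h (0.702% and 17.9% of all genes) and likewise at 2 h (1.70% and 25.5%). In nuclei 1 rose and 3 fell at 1 h (0.508% and 48.0% of all genes) and likewise at 2 h (1.59% and 38.1%). Because Slc16a6 was chosen on these comparisons with time, nothing is read from these shares.

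The deposited transcript table, in FPKM for 11 of the libraries, listed 2 of the transporters. Slc2a1 had 1.95 and 1.74 FPKM in mitochondrial preparations at 2 h, against 3.87 and 3.79 FPKM at 0 h. Slc16a1 had 3.72 and 3.6 FPKM in mitochondrial preparations at 2 h, against 5.77 and 4.67 FPKM at 0 h. The later nuclear libraries had at most 2.41 FPKM of Slc2a1, against 4.28 and 4.09 FPKM at 0 h, and at most 3.88 FPKM of Slc16a1, against 5.67 and 5.69 FPKM at 0 h. FPKM is also scaled to library size and comes from the same libraries, so the 2 tables are not separate evidence.

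Among the other members of both transporter families most had few reads, and Slc16a10 (155 to 358 per library) and Slc16a13 (64 to 170) had the most. Of the 10 other glucose transporter genes 9 were tested, and limma called none in any of the 9 comparisons. At most 2 had an unadjusted p under 0.05 in any of them. Over all genes, 0% to 6.78% were called in each direction in these comparisons, so nothing is read from the lack of calls. Their median log2 fold change at 2 h against 0 h was 0.29 in mitochondrial preparations and 0.50 in nuclei, against 0.00 over all genes in both, and most held few reads. Slc2a6, Slc2a8, Slc2a9 and Slc2a12 had 9 to 48 reads per library and Slc2a10 at most 1. Of the 11 other monocarboxylate transporter genes 10 were tested, with a median at 2 h of -0.38 in mitochondrial preparations and 0.10 in nuclei. Slc16a14 alone was called, at 2 h against 0 h in both preparations, where 4.66% and 4.65% of all genes rose. Slc16a9 narrowly missed there, with 3.03 ± 0.92 in mitochondrial preparations and 3.11 ± 0.92 in nuclei (log2, limma adjusted p = 0.054 and 0.052). Its reads in mitochondrial preparations were 21 and 17 at 2 h, against 1 and 5 at 0 h. In nuclei they were 35 and 39 at 2 h, against 5 and 10 at 0 h. Slc16a14 had 11 and 4 reads in mitochondrial preparations at 2 h, against 0 and 0 at 0 h, and 23 and 10 reads in nuclei at 2 h, against 1 and 0 at 0 h. It passed the filter only through the later libraries, and a fold change against such values depends on the lowest level, so none is given. On the deposited scale 2 members rose and 2 fell in mitochondrial preparations at 2 h, where 1.70% of all genes rose and 25.5% fell, and 2 rose and 3 fell in nuclei, where 1.59% rose and 38.1% fell.

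Of the 3 glycoproteins that carry monocarboxylate transporters to the surface, Bsg and Nptn were called and Emb was not. Bsg, which escorts MCT1 and MCT4, fell in mitochondrial preparations by 0.43 ± 0.07 at 1 h and 0.29 ± 0.07 at 2 h (log2, adjusted p = 0.0035 and 0.022). Nptn, a neuroplastin of the same family, fell there by 0.34 ± 0.06 at 1 h and 0.37 ± 0.06 at 2 h, and in nuclei by 0.23 ± 0.06 at 2 h (adjusted p = 0.0082, 0.0032 and 0.037). Emb, the partner of MCT2, passed in no comparison. Thus 2 of the 3 fell in mitochondrial preparations at 2 h (6.78% of all genes) and 1 of the 3 in nuclei (5.55%), with a median of -0.29 and -0.08, against 0.00 over all genes, while on the deposited scale all 3 fell in each (25.5% and 38.1% of all genes). Bsg was lower by 0.19 ± 0.04 in mitochondrial preparations than in nuclei (adjusted p = 0.013), but this reversed to 0.16 with median centring.

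Among 7 regulators of glucose transporters at the cell surface, Txnip and Arrdc4 rose and Snx27 fell at 2 h in both preparations. Txnip, which drives GLUT1 into endosomes and is induced by MondoA when glucose is plentiful, had 47.6 and 43.0 RPM in mitochondrial preparations at 2 h, against 13.2 and 11.9 RPM at 0 h. In nuclei it had 41.2 and 36.0 RPM at 2 h, against 14.6 and 14.4 RPM at 0 h. Txnip rose at 2 h by 2.13 ± 0.08 in mitochondrial preparations and 2.02 ± 0.08 in nuclei (log2). The changes of Txnip and Arrdc4 were known when the list was drawn up and are a description, with no test. Arrdc4, described above as nearest to Slc16a6, had 5.75 and 4.77 RPM in mitochondrial preparations at 2 h, against 1.16 and 0.873 RPM at 0 h.

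Snx27, a sorting nexin that returns GLUT1 to the surface with the retromer, fell at 2 h by 0.79 ± 0.09 in mitochondrial preparations and by 0.73 ± 0.09 in nuclei (log2, adjusted p = 0.00026 and 0.00047). The retromer genes Vps35 and Vps26a fell in nuclei at 2 h, by 0.40 ± 0.07 and 0.37 ± 0.07 (adjusted p = 0.003 and 0.0078). Of the 7 regulators 2 rose and 1 fell in mitochondrial preparations at 2 h, and 2 rose and 3 fell in nuclei, where 4.66% and 4.65% of all genes rose and 6.78% and 5.55% fell. Their medians were -0.08 and 0.09 in mitochondrial preparations and nuclei, against 0.00 over all genes. From deposited values 2 rose and 4 fell in mitochondrial preparations (1.70% and 25.5% of all genes), and 2 rose and 5 fell in nuclei (1.59% and 38.1%). The alpha-arrestin results were among those known when the list was drawn up, so nothing is read from the rises counted here.

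Of the 11 genes of glucose trapping and lactate and pyruvate handling, none fell in any comparison after quantile normalization. Of all genes 0% to 6.78% fell in these comparisons, so nothing is read from that. Pdk4, a kinase that shuts pyruvate dehydrogenase, rose at 2 h by 0.80 ± 0.22 in mitochondrial preparations and 0.85 ± 0.22 in nuclei (log2, adjusted p = 0.04 and 0.033). Neither rise passed on the deposited scale (0.5 and 0.29, limma adjusted p = 0.16 and 0.38). Hk2, the inducible hexokinase, rose in nuclei at 2 h by 0.43 ± 0.09 (adjusted p = 0.014), but it was -0.17 on the deposited scale. After quantile normalization 1 rose in mitochondrial preparations at 2 h and 2 in nuclei (4.66% and 4.65% of all genes). Without that step 0 rose and 2 fell in mitochondrial preparations, and 0 rose and 6 fell in nuclei, where 25.5% and 38.1% of all genes fell. The medians of the list were 0.17 and 0.02 in mitochondrial preparations and nuclei, against 0.00 over all genes. Ldha, Ldhb and Hk2 were higher in mitochondrial preparations than in nuclei, by 0.17 ± 0.05, 0.64 ± 0.15 and 0.27 ± 0.05 (adjusted p = 0.049, 0.017 and 0.0098), where 4.43% of all genes were higher. The sizes moved with the scaling, to 0.32, 0.49 and 0.31 on the deposited scale and to 0.51, 0.67 and 0.49 with median centring. Ldhb did not pass on the deposited scale (limma adjusted p = 0.066).

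Among 6 tested factors of the HIF and MondoA pathways, Myc rose at 2 h by 0.76 ± 0.14 in mitochondrial preparations and 0.92 ± 0.14 in nuclei (log2, adjusted p = 0.0057 and 0.002). On the deposited scale Myc did not pass in nuclei (0.35, limma adjusted p = 0.07). Hif1a rose in mitochondrial preparations by 0.27 ± 0.07 (adjusted p = 0.029), with -0.10 on the deposited scale. Thus 2 of the 6 rose in mitochondrial preparations and 1 in nuclei (4.66% and 4.65% of all genes). Deposited values gave 1 that rose and 3 that fell in mitochondrial preparations, and 0 and 4 in nuclei, where 25.5% and 38.1% of all genes fell. Of 12 HIF target genes, Vegfa, Ddit4, Ndrg1 and Pfkfb3 rose at 2 h in both preparations and P4ha1 fell in both. Of all genes, 4.66% rose and 6.78% fell in mitochondrial preparations, and 4.65% rose and 5.55% fell in nuclei. Ddit4, an inhibitor of mTORC1, rose by 1.37 ± 0.13 in mitochondrial preparations and 1.5 ± 0.13 in nuclei (adjusted p = 0.0001 and 4.4e-05), and the angiogenic factor Vegfa by 0.89 ± 0.10 and 1.37 ± 0.10 (adjusted p = 0.00026 and 8.7e-06). P4ha1, a collagen prolyl hydroxylase, fell by 0.49 ± 0.08 in mitochondrial preparations and 0.31 ± 0.08 in nuclei (adjusted p = 0.0028 and 0.031). The list's medians were 0.16 in mitochondrial preparations and -0.09 in nuclei, against 0.00 over all genes. On the deposited scale 3 rose and 3 fell in mitochondrial preparations (1.70% and 25.5% of all genes), and 2 rose and 4 fell in nuclei (1.59% and 38.1%), where Ndrg1 was 0.01 and Pfkfb3 0.10. Slc2a1 and Slc16a3 rose in neither preparation.

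**Figure D4:**
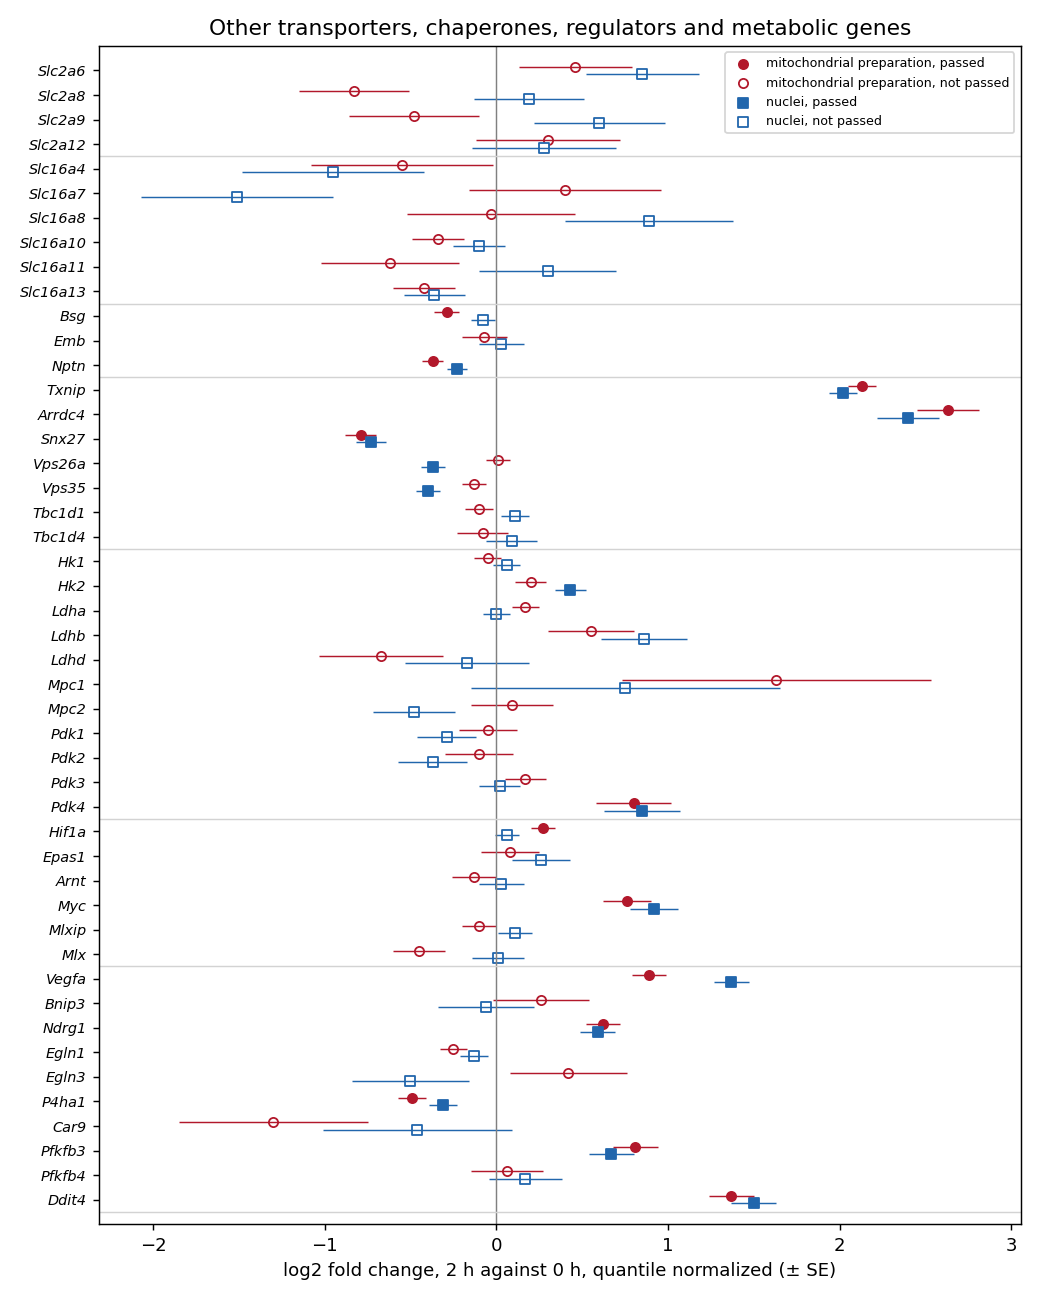
Log2 fold change at 2 h against 0 h with the SE of limma, quantile normalized, for listed genes with a median of at least 10 reads. Circles are mitochondrial preparations, squares are nuclei, filled symbols passed the adjusted p threshold of 0.05, and grey lines part the lists. Txnip and Arrdc4 lie farthest to the right in both preparations, Ddit4 and Vegfa are above 0 and Snx27 is below 0 in both, and the wide bars of Mpc1 (1.63 ± 0.90 in mitochondrial preparations) mark a gene that did not pass.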

How the data were processed

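RNA depleted of ribosomal RNA was made into libraries with the NEBNext Ultra II kit, per the labels' protocols. Per the submitters' processing notes the tools were HISAT2, StringTie and edgeR with the builds GRCm38 and mm10, with no versions or roles. The deposited gene table holds log2 RPM per gene, where the lowest value stands for 0.9 read, and whole reads could be recovered from it (at least 99.997% of values within 0.05 read). The deposited transcript table holds FPKM for 7153 transcripts. The RPM total includes reads outside genes, and counting settings, strand included, are not given in the sources used here. Genes repeated in the table (52 of 35373 entries) were kept once.

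Libraries were quantile normalized, and genes above the lowest value in at least 2 libraries (21078) were fitted with limma 3.58.1 in R 4.3.3, with 1 mean per group over all 12 libraries, a variance trend and robust moderation, in 9 contrasts. Adjusted p-values are Benjamini-Hochberg values over all genes tested in a contrast, with a threshold of 0.05. The series describes the 2 libraries per group as biological replicates without naming separate cultures, so p-values measure the spread between these libraries. Precision is limited by the read numbers given beside low genes. The 5 genes, the gene lists and the tests were chosen with earlier results of these data known, so the p-values are not independent evidence. Named genes are the 5 transporters, listed genes past the threshold and the 3 nearest profiles. The plan of at most 4 per list and contrast, by fold change, was not kept throughout. Some calls are not given above, such as Vegfa (-0.53) and Tbc1d4 (0.33) in mitochondrial preparations relative to nuclei. Another is Vps35 in nuclei at 1 h (-0.38). Genes named below the threshold were chosen after their values were seen. Loci and overlaps come from GENCODE M21 (35250 identifiers matched), and promoters from RefSeq (GRCm38.p6; 3 of the 5 genes matched). The fit was tested on simulated data, with independent libraries of 1 common spread. Between real replicates, the chi-square of reads per degree of freedom was 8.95 to 12.4 at 0 and 1 h. At 2 h it was 1.92 and 1.99, and replicate differences at 0 and 1 h correlated between groups. The simulation therefore does not show how the fit behaves under such a spread. Alternatives in scaling, filter, pseudocount, variance model, libraries and replicate block were run.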

Additional observations from a re-analysis of the deposited data

How the results depend on the processing

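The counts of transporters past the threshold moved with the scaling. In the comparisons with time these counts include Slc16a6, whose changes were known when it was chosen, so they describe the processing only. With the deposited scale they were 3 in mitochondrial preparations at 1 h against 0 h (1 after quantile normalization) and 3 at 2 h (2), 4 in nuclei at 1 h (1), 4 in nuclei at 2 h (1) and 1 in nuclei between 1 and 2 h (2). On that scale 3781, 5377, 10118 and 8031 of the 21078 genes fell in the first 4 of these comparisons. With median centring they were 2 in mitochondrial preparations at 1 h, 2 in nuclei at 2 h, 1 between mitochondrial preparations and nuclei (0) and 1 for the difference of the 1 h response (0). A pseudocount of 0.5 RPM gave 2 in mitochondrial preparations at 1 h and 2 in nuclei at 2 h, and so did keeping only genes above the median level, which also gave 1 for the difference of the 1 h response. Limma with voom weights on the recovered reads, chosen after seeing the data, gave 2 in mitochondrial preparations at 1 h, 2 in nuclei at 2 h, 1 in nuclei between 1 and 2 h and 1 between preparations. Between 1 and 2 h in nuclei, no filter gave 1 and no trend or robust moderation gave 0. A term for the 4 libraries that stood apart gave 2 in mitochondrial preparations at 1 h and 1 in nuclei between 1 and 2 h. Leaving the 4 out gave 0 in mitochondrial preparations at 1 h, 1 at 2 h (2) and 0 between 1 and 2 h (1), and in nuclei 0 at 1 h and 0 between 1 and 2 h. That fit has 8 libraries, and a lone library is assumed to vary like the other groups. The signs that reversed were those of Slc2a1 in nuclei at 1 h (-0.59 on the deposited scale), Slc16a1 in nuclei at 1 and 2 h (-0.62 and -0.56, same scale) and Slc16a1 between mitochondrial preparations and nuclei (0.17 with median centring). The cause was not tested.

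Leaving out 1 library at a time gave counts of 0 to 1 in mitochondrial preparations between 1 and 2 h and of 0 to 1 in nuclei between 1 and 2 h, and did not move the other counts. In the first, Slc16a6 missed the threshold without either 1 h library (0.90 and 0.88) or without 2 h replicate 2 (0.81). In nuclei it missed it without 1 h replicate 2 (0.64) or either 2 h library (0.93 and 0.77). Its changes with time were known beforehand, so these values describe the fits and are no test of the gene. The replicate numbers do not pair the libraries in the same way in all groups. The replicate differences of nuclei 0 h and 1 h correlated at 0.77 (10134 genes). Those of mitochondrial 1 h correlated with nuclei 0 h and 1 h at 0.8 and 0.75. Those of mitochondrial 0 h ran the other way, at -0.76 with mitochondrial 1 h and -0.8 and -0.74 with nuclei 0 h and 1 h. The 2 h groups correlated with none beyond 0.06. With the replicate block, 1 transporter was called in nuclei between 1 and 2 h, where Slc2a1 was lost, and the other counts did not move. With the numbers of mitochondrial 0 h crossed, chosen after seeing the data, 2 were called in mitochondrial preparations at 1 h. The planned edgeR test was not run because the values were deposited on a log2 scale. Of the fold changes of single transporters under the alternatives, 622 kept direction and side of the threshold, 40 moved without a call, 19 passed only under the alternative, 22 failed it and 4 reversed. Depth limits Slc16a3 and Slc2a3 most, as their read numbers show.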

Other observations

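The genes around the transporters differed in when they were called. Between 1 and 2 h, Arrdc4 rose by 0.89 ± 0.18 in mitochondrial preparations and 1.02 ± 0.18 in nuclei (log2). Arrdc4 was picked as the profile nearest to Slc16a6 and the alpha-arrestin results were known beforehand. Its closeness in size to Slc16a6 restates that choice and is a description with no test. Txnip, the other alpha-arrestin, was 2.20 ± 0.08 at 1 h and 2.13 ± 0.08 at 2 h against 0 h in mitochondrial preparations, and 2.17 ± 0.08 and 2.02 ± 0.08 in nuclei, and it was not called between 1 and 2 h in either. Among the HIF targets, 3 rose between 1 and 2 h in both preparations: Ddit4 by 1.09 ± 0.13 in mitochondrial preparations and 1.07 ± 0.13 in nuclei, Vegfa by 0.80 ± 0.10 and 0.87 ± 0.10, and Ndrg1 by 0.67 ± 0.10 and 0.54 ± 0.10 (limma adjusted p from 0.0011 to 0.017). In mitochondrial preparations Pfkfb3 also rose (0.56 ± 0.13, adjusted p = 0.036) and Egln1 fell by 0.36 ± 0.08 (adjusted p = 0.036). Pfkfb3 did not pass there on the deposited scale (0.53, limma adjusted p = 0.091). Of all genes, 1.61% rose and 2.12% fell there and 1.16% rose in nuclei. At 1 h against 0 h the only one of the 12 that rose was Vegfa in nuclei, by 0.49 ± 0.10 (adjusted p = 0.03), and this value was -0.20 on the deposited scale, and P4ha1 fell in mitochondrial preparations by 0.58 ± 0.08 (adjusted p = 0.0014). Of all genes, 1.01% rose in nuclei and 3.74% fell in mitochondrial preparations at 1 h.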
